A study of Homo sapiens with 18 samples.

Results

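The promoters of cytoplasmic ribosomal protein genes were examined as accessible regions in 3 human head and neck squamous cell carcinoma (HNSCC) cell lines. A region was taken when it lay within 1 kb of an annotated start of a protein-coding transcript of a gene named RPL or RPS with a number, or of RPLP0, RPLP1, RPLP2 or RPSA, with the kinases and paralogs that share these prefixes left out. The rule found 74 regions among 115087 regions in all, of which 15528 were promoter regions of any protein-coding gene by the same distance. The 74 regions comprised 42 of large subunit genes, 29 of small subunit genes including RPSA, and 3 of the RPLP stalk genes. They belonged to 70 distinct genes, and 4 of these genes (RPL6, RPS29, RPL36 and RPL12) had a pair of regions each.

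Open chromatin was read out with ATAC-seq, a method that uses Tn5 transposase to place sequencing adapters where DNA is accessible. The lines were SCC1, SCC6 and SCC25, each given cetuximab (an antibody against the epidermal growth factor receptor) at 100 nM every day for 5 days, or PBS as the untreated control. The files used held 17 libraries in 6 groups, 3 in each group except SCC1 PBS with 2 (replicates 1 and 3, since replicate 2 was not analysed here). All cells of a group came from 1 established tumour line grown in culture, and nothing in the labels says whether replicates were separate cultures, so p-values measure only the spread between these libraries. The recovered reads in regions ran from 2194851 to 15017130 per library, and the median ribosomal protein promoter held 42 to 307 reads. All 8 squamous epithelial genes used as a check (KRT5, KRT14, KRT17, TP63, CDH1, SFN, DSG3 and ITGB4) had a promoter region, with a median signal over libraries of 22.1 to 92.2, although DSG3, KRT14 and KRT5 each had a region that fell to between 0.669 and 1.21 in at least 1 library. Of 8 leukocyte, endothelial and fibroblast genes, only the fibroblast collagen gene COL1A2 (median signal 26.7) and the fibroblast gene DCN (1.30) had one.

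Ribosomal proteins are the structural proteins of the small and large subunits of the cytoplasmic ribosome, and their genes are expressed in nearly every cell in balanced amounts. Their messenger RNAs typically begin with a cytosine followed by a run of pyrimidines, the 5′ terminal oligopyrimidine (TOP) motif, through which mTOR signalling and the protein LARP1 control their translation. Their promoters are compact, usually lack a consensus TATA box and often carry sites for ETS family factors such as GABP, for Sp1 and for YY1.

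The sequences at the transcription starts show what these promoters share beyond their names. In GENCODE annotation on GRCh37 (hg19), the build of the files, the first annotated base was a C in 57 of the 70 genes with a region (81.4%), compared with 10.6% of 19471 protein-coding genes. A C that opened a run of at least 5 pyrimidines was found at 53 starts (75.7%), compared with 4.65% of all protein-coding genes and 6.41% of 78 mitochondrial ribosomal protein genes. Each line below gives 80 bases of GRCh37 on the sense strand, with 60 bases before the annotated start and 20 from it on, and capitals mark the unbroken pyrimidine run that spans the start. Each of these genes had a promoter called in a comparison between treatments or between lines. The first 7 have such a run across the start. RPL23A and RPL27 do not, and their promoters rose with cetuximab in SCC1.
RPL13A: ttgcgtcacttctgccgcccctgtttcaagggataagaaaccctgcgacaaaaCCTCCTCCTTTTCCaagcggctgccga
RPLP2: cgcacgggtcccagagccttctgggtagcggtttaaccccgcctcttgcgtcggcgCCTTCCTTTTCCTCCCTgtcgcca
RPS16: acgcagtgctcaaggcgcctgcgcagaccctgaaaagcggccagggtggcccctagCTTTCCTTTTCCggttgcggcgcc
RPL5: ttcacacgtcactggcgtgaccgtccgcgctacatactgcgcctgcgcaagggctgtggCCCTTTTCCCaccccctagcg
RPSA: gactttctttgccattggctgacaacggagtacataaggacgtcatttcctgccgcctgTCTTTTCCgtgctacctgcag
RPLP0: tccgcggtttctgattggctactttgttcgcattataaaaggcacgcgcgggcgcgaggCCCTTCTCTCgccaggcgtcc
RPL3: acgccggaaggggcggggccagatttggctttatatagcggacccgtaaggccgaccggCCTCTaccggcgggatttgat
RPL23A: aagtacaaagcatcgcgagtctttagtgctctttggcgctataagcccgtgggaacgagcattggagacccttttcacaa
RPL27: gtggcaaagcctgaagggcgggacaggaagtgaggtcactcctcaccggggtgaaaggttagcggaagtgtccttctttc

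These windows lie at chr19:49990805-49990884 for RPL13A and chr11:809907-809986 for RPLP2, both on the plus strand. RPS16 is at chr19:39926570-39926649 on the minus strand. RPL5 is at chr1:93297537-93297616 and RPSA at chr3:39448151-39448230, both plus. RPLP0 is at chr12:120638895-120638974 and RPL3 at chr22:39715609-39715688, both minus. RPL23A (chr17:27046943-27047022) and RPL27 (chr17:41150376-41150455), both plus, are shown as the contrast, because their annotated first base is an A and no pyrimidine run spans it. In both printed windows a stretch rich in pyrimidines follows downstream of the annotated base.

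Within the 300 bases from 250 before to 50 after the start, the ETS core CCGGAA on either strand was present in 55.7% of the 70 genes and in 22.8% of all protein-coding genes. The YY1 core AAGATGG on either strand was present in 18.6% and 6.45%. The letters CTTTCC on the sense strand were in 40.0% against 13.8%, CTCTTT in 35.7% against 9.67%, and TTTCCT in 32.9% against 13.5%; these 3 words can overlap one another and the TOP run. Of the other words, the Sp word GGGCGG was in 61.4% against 61.8%, TATAAA in 7.14% against 9.58%, the E-box CACGTG bound by MYC in 5.71% against 8.75%, the TFAP2 word GCCNNNGGC in 22.9% against 29.8%, and the AP-1 word TGACTCA in 1.43% against 3.56%, all on either strand. The NRF1 word GCGCATGC, also on either strand, was in 8.57% against 4.24%. Such matches describe letters in a window and not bound factors.

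Accessible regions at these genes mostly covered the start itself and were wider than the median promoter region. The annotated start of the gene lay inside the region for 68 of the 74. Their width had a median of 603 bases (range 183 to 2396), against 510 bases for all promoter regions and 258 for all regions, and their GC content had a median of 61.9%, against 65.1% and 45.9%. At 71 of the 74, the region reached to within 700 bases of the main annotated start of the gene, and the plot of extents shows 68 of these. Region 1 of RPL6, region 2 of RPS29 and region 1 of RPL36 did not, and these lay within 1 kb of starts of PTPN11, LRR1, and HSD11B1L and MICOS13, respectively. In total 20 regions also lay within 1 kb of a start of another protein-coding gene, so that their signal cannot be assigned to 1 gene. Such regions are called shared with that start below. By the same distance, 28 regions lay near a start of a non-coding gene.

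**Figure D1:**
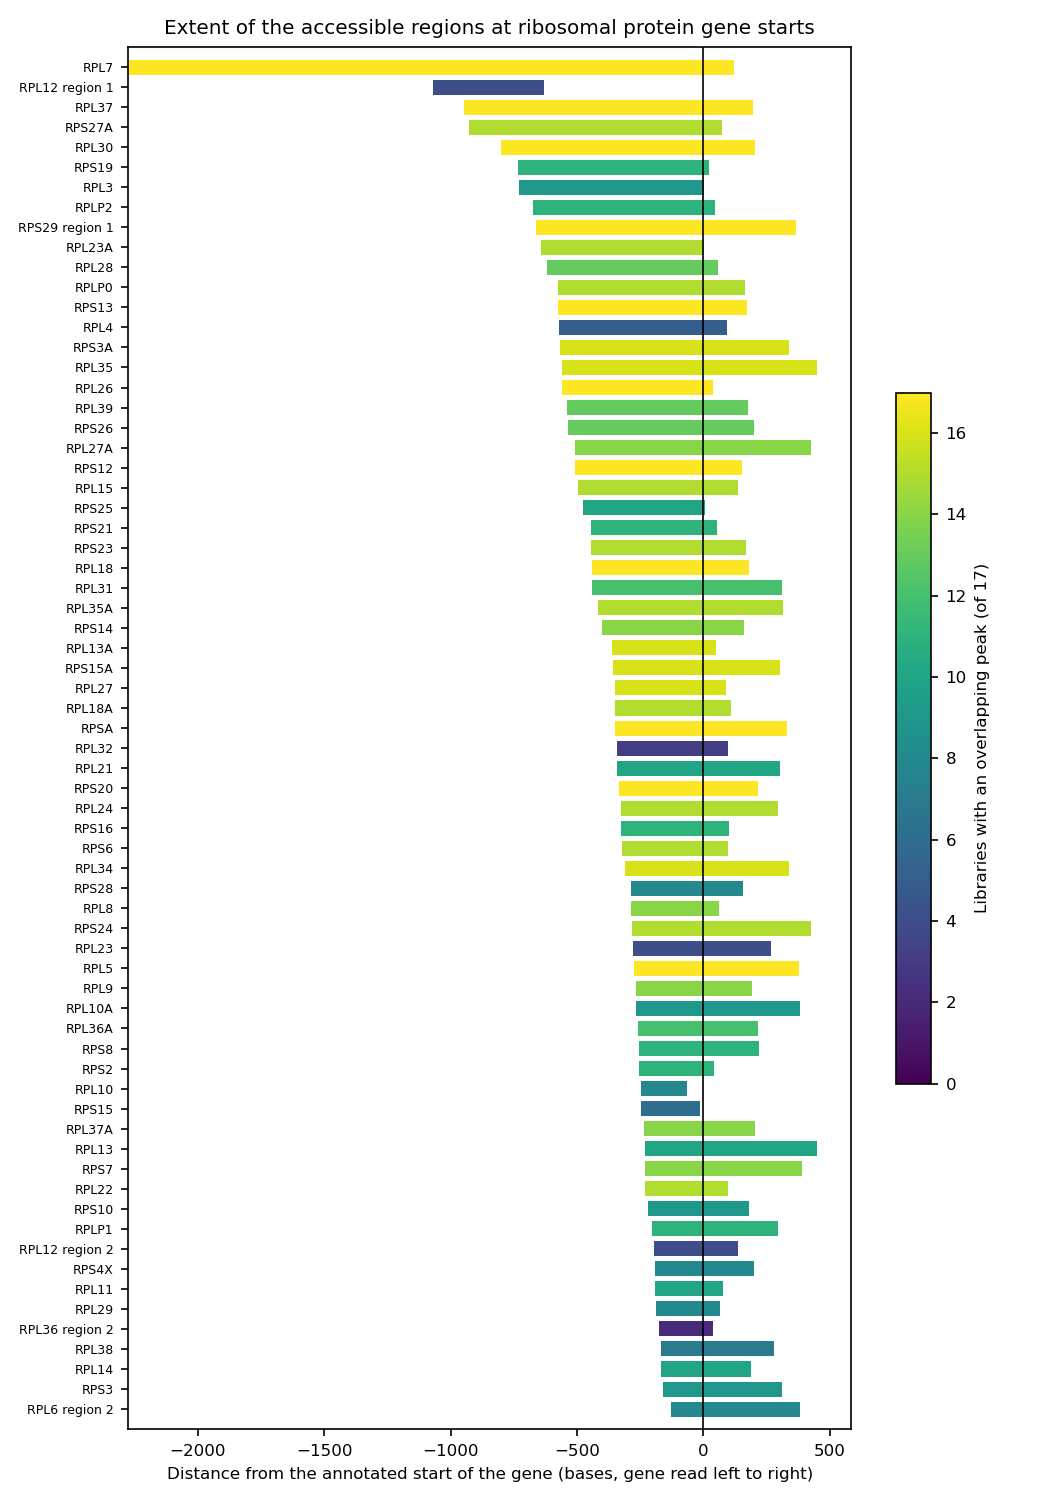
Extent of 68 ribosomal protein promoter regions relative to the main annotated start of the gene (x axis, bases, transcription to the right), with 1 bar per region coloured by the number of the 17 libraries with an overlapping MACS2 peak. Most bars cross the start and extend farther before it than after it, and RPL7 has the longest bar, of a 2396-base region.

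A MACS2 peak overlapped the median ribosomal protein promoter in 14 of 17 libraries, against 12 for all promoter regions and 5 for all regions. Peaks in all 17 libraries were found at 12 of them (16.2%), against 20.3% of promoter regions and 4.72% of all regions. The number with a peak ranged from 23 in SCC25 cetuximab replicate 3 and 25 in SCC1 cetuximab replicate 2, the libraries with the fewest reads, to 74 in SCC6 cetuximab replicate 3, the library with the most. Presence of a peak was not compared between treatments. No region was listed for 8 genes outside the Y chromosome. For RPL7A a peak lay within the window in 1 library, and for RPL17, RPL17-C18orf32, RPL19, RPL41, RPS9, RPS18 and RPS27 in 0 libraries.

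At 5 promoters the region table and the peak lists differed. Among them, RPS25, RPL36A and RPL10 were listed at the floor of 1 read in all 17 libraries, and RPS19, the gene most often mutated in Diamond-Blackfan anaemia, at no more than 3 reads in any. MACS2 peaks overlapped the same regions in 10, 12, 8 and 11 libraries, respectively, with a highest fold enrichment of 14.8 at RPL36A. Regions at no more than 3 reads in every library made up 6.76% of ribosomal protein promoters, 3.85% of promoter regions and 4.22% of all regions. No second copy of these 4 regions was found in the reference genome (at a coverage of at least 50%). The 5 regions were below the filter on low signal, and 69 regions were tested in every comparison.

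Levels differed several-fold among the 69 promoters. Signal is given in scaled reads, the recovered read count times 1 factor per library, and levels of different genes are compared only per kb of region width. High mean signals per kb over all libraries belonged to RPS20 (386), RPL8 (319) and RPS12 (319). Apart from the regions at the floor, RPL4 (62.3), RPL32 (76.1), RPS3 (89.9) and RPS28 (90.1) were lowest. Genes with a C that opened a run of at least 5 pyrimidines had a median of 182 per kb (49 promoters, range 89.9 to 386). The other genes had a median of 131 per kb (16 promoters, range 62.3 to 251). For each gene the region of highest mean signal was used here. For RPL6, RPL36 and RPL12 that region did not hold the annotated start. Per kb the PBS libraries had a median over promoters of 155 in SCC1, 171 in SCC6 and 134 in SCC25.

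The heat map of all libraries shows how the promoters varied together. Median signal over the promoters was 149, 101 and 146 in SCC1 cetuximab replicates 1, 2 and 3, and 83.3 and 94.9 in SCC1 PBS replicates 1 and 3. The medians in SCC6 were 92.9, 106 and 101 with cetuximab and 104, 106 and 110 with PBS. Those in SCC25 were 70.3, 80.1 and 74.4 with cetuximab and 84.4, 72.8 and 73.8 with PBS. Only in SCC1 did the medians of all treated libraries lie above those of all untreated libraries. The median over all promoter regions was also higher there, with 92.7, 75.9 and 93.9 against 70.3 and 73.7 in SCC1, while in SCC6 all treated libraries (69.7, 71.5 and 73.7) lay below the PBS libraries (77.3, 77.6 and 79.4) and in SCC25 the groups overlapped. SCC1 cetuximab replicate 2, the library with the fewest reads, lay closest to the PBS libraries.

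**Figure D2:**
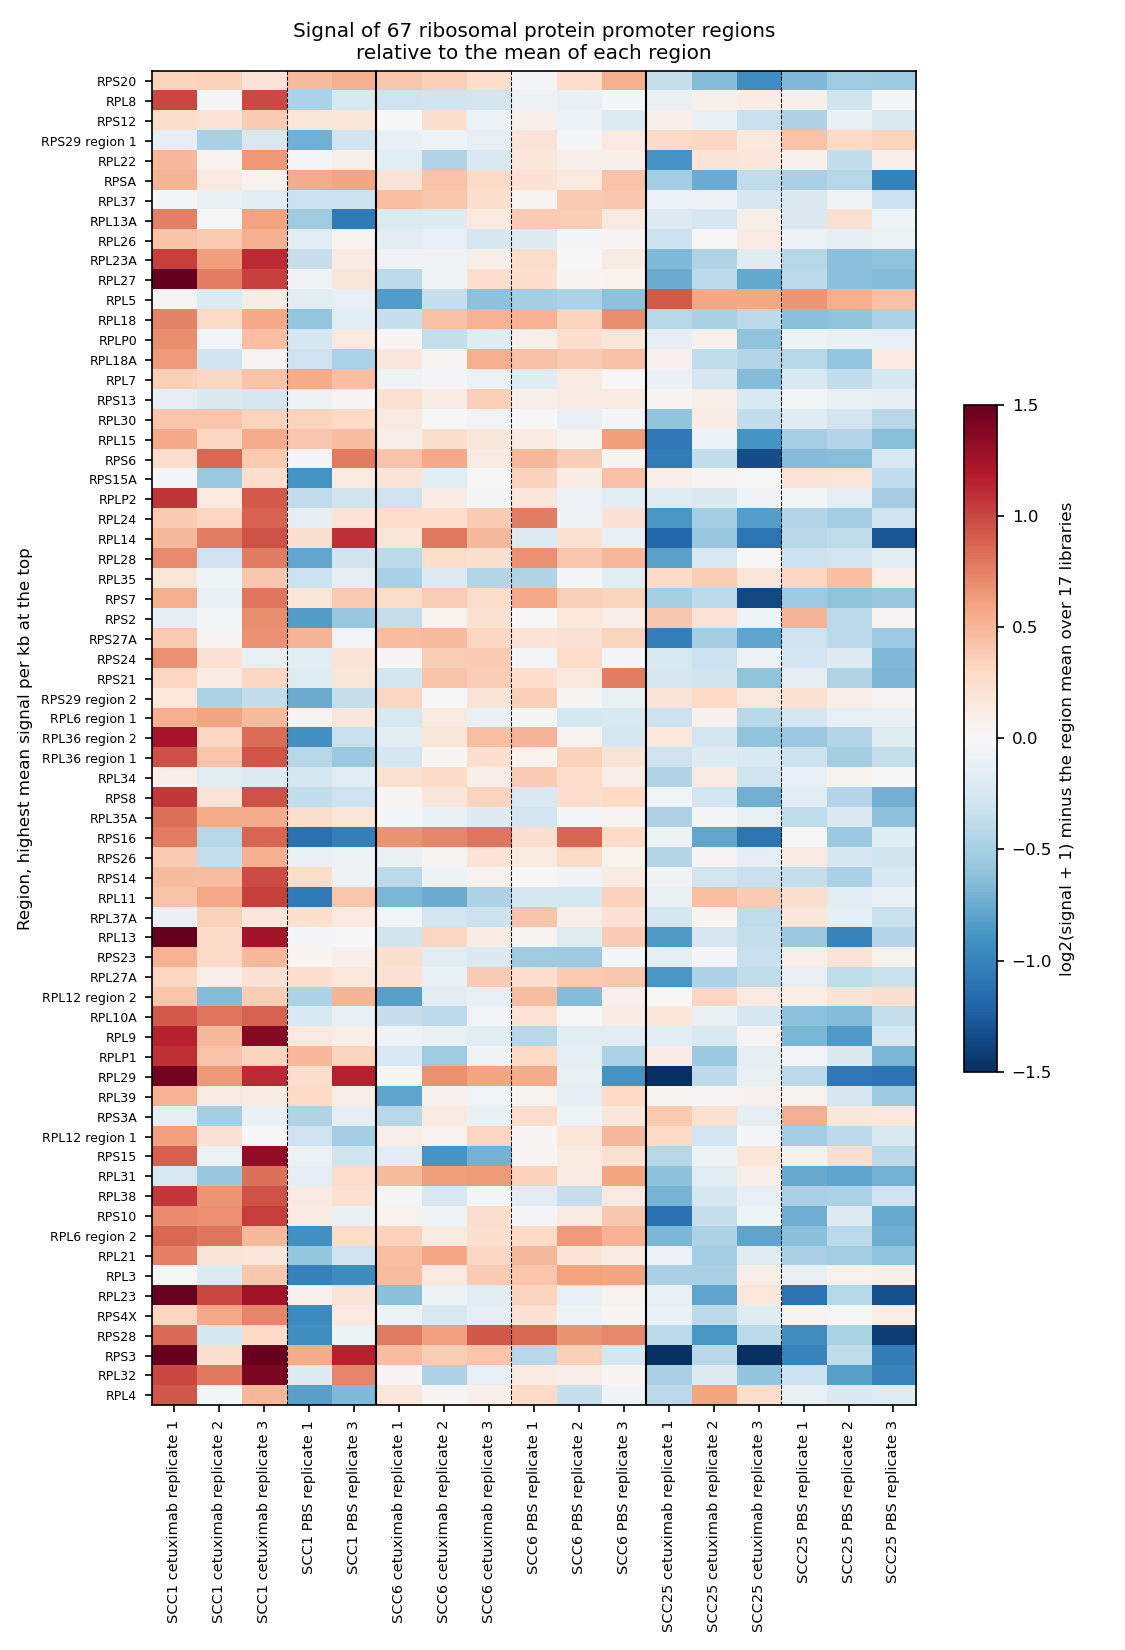
Heat map of 67 ribosomal protein promoter regions (rows, highest mean signal per kb at the top) in 17 libraries (columns), coloured by log2(signal + 1) minus the mean of the region over all libraries. SCC1 cetuximab replicates 1 and 3 are the most red columns, and most SCC25 columns are blue, with RPL5 and RPS29 region 1 as red rows in SCC25.

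The first comparison asked which ribosomal protein promoters changed accessibility with cetuximab in SCC1. Signal rose at 19 of 69 promoters (27.5%) and fell at none, by limma on log2(signal + 1) with an adjusted p under 0.05. Among all tested regions 10.8% were called in either direction and 4.41% were called higher, and among all tested promoter regions 13.1% were called higher. The median log2 change was 0.43 over the ribosomal protein promoters, 0.18 over other promoters and -0.09 over all regions. Cetuximab libraries all lay above both PBS libraries at 37 of 69 promoters (53.6%), compared with 30.6% of promoter regions and 15.8% of all regions. The changes were mostly about a doubling of the signal, with log2 changes from 0.89 to 1.48 among the called promoters.

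Among small subunit genes, 3 of 26 promoters rose, a share below the 13.1% of all promoter regions. RPS16, whose protein reaches the site where the transfer RNA is held and whose region is shared with the start of SUPT5H, had 99.0, 42.8 and 106 with cetuximab and 26.0 and 27.9 with PBS, and a log2 change of 1.48 ± 0.33 (SE, adjusted p = 0.000929, limma). Here replicate 2 held less than the other treated libraries but still more than either PBS library. Promoters of other small subunit genes with textbook roles did not pass the test. The value for RPS14, the gene of the 5q- syndrome, was 0.54 ± 0.25 (adjusted p = 0.151, limma), and that for RPSA, the small subunit protein also known as the laminin receptor, was -0.34 ± 0.18 (adjusted p = 0.248, limma).

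Among large subunit genes, 15 of 40 promoter regions rose, against 13.1% of all promoter regions and 4.41% of all regions called higher. Both regions of RPL36 were among the 15. RPL13A, which also acts in translational silencing through the GAIT complex, had signals of 184, 109 and 164 with cetuximab and 74.2 and 51.4 with PBS, with a log2 change of 1.26 ± 0.25 (adjusted p = 0.000133, limma). RPL23A, whose protein sits at the exit of the nascent chain tunnel, had 312, 234 and 329 against 118 and 165, with a log2 change of 1.04 ± 0.19 (adjusted p = 3.51e-05, limma). The RPL23A region lay almost wholly before the annotated start and was shared with the start of RAB34. RPL10A, the protein of the mobile L1 stalk, had 154, 142 and 150 against 69.0 and 74.8 and a log2 change of 1.04 ± 0.24 (adjusted p = 0.00125, limma). RPL27 had 286, 167 and 200 against 93.7 and 110, with a change of 1.05 ± 0.22 (adjusted p = 0.0002, limma). Region 1 of RPL36, shared with the starts of HSD11B1L and MICOS13, had 171, 117 and 169 against 65.1 and 59.2 (1.26 ± 0.25, adjusted p = 0.0001, limma).

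RPL23, a large subunit protein that binds the p53 regulator MDM2, had signals of 152, 93.4 and 111 with cetuximab and 48.1 and 52.5 with PBS. Its log2 change was 1.20 ± 0.27 (adjusted p = 0.000848, limma). RPL11 and RPL5, which also bind MDM2, gave no call. RPL11 had 49.5, 54.5 and 75.1 against 16.9 and 49.1 (log2 change 1.00 ± 0.36, adjusted p = 0.0524, limma), where the PBS libraries differed from each other about as much as from the treated ones. RPL5 had 152, 128 and 160 against 133 and 136, groups that overlapped (0.12 ± 0.22, adjusted p = 0.803, limma). RPL3, next to the peptidyl transferase centre, had 69.8, 60.3 and 92.3 against 33.8 and 35.7 (1.05 ± 0.32, adjusted p = 0.0179, limma). RPL22 had 132, 97.3 and 149 against 92.4 and 100 and did not pass (0.36 ± 0.24, adjusted p = 0.374, limma).

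Of the 3 stalk genes, which recruit the elongation factors, only RPLP2 rose. RPLP2 signals were 291, 152 and 261 with cetuximab and 105 and 112 with PBS, a log2 change of 1.05 ± 0.21 (adjusted p = 0.000194, limma). RPLP0 had 263, 158 and 222 against 135 and 180, and these groups overlapped (0.42 ± 0.20, adjusted p = 0.178, limma). RPLP1 had 131, 81.8 and 76.7 against 85.9 and 77.0. Whether the stalk genes differed from one another was not tested.

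**Figure D3:**
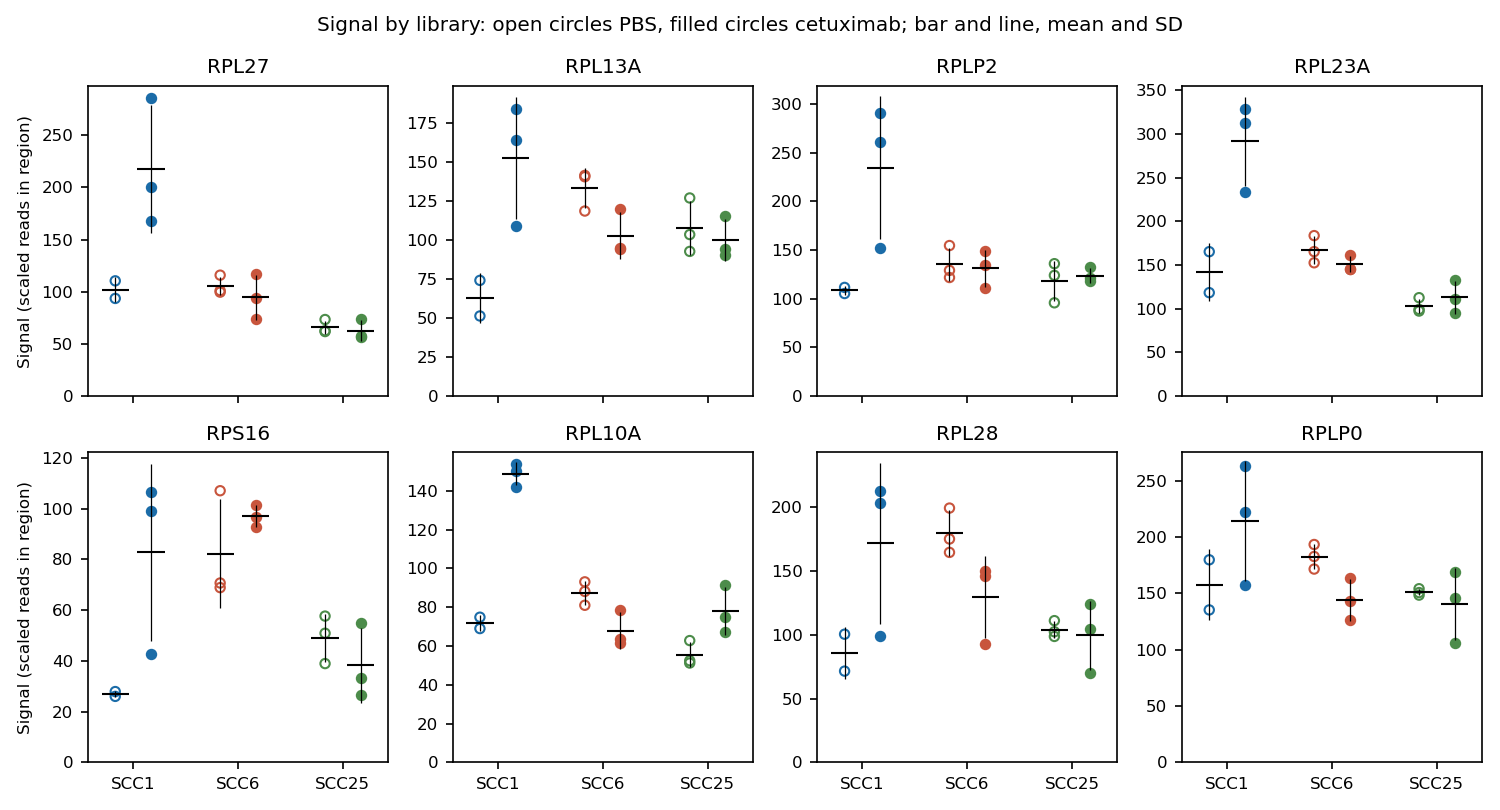
Signal in each library (y axis, scaled reads in the region, from 0) at 8 ribosomal protein promoters in SCC1, SCC6 and SCC25, with PBS as open and cetuximab as filled circles and the mean and SD as bar and line. In SCC1 the filled circles lie above the open ones at RPL27, RPL13A, RPLP2, RPL23A, RPS16 and RPL10A, and at RPL28 and RPLP0 the lowest treated library lies among the PBS libraries.

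The changes in SCC1 went together with position in the genome. On chromosome 19, 7 of 11 tested ribosomal protein promoters rose, with a median log2 change of 0.93, and elsewhere 12 of 58 rose, with a median of 0.36. Other promoters on chromosome 19 had a median of 0.75, with 306 of 899 called higher and 0 lower. Those elsewhere had a median of 0.15, with 1575 of 13585 called higher and 223 lower. The other regions within 1 Mb of a called ribosomal protein promoter had a median log2 change of 0.71 (taken over the 19 promoters, range 0.10 to 0.89), whereas those around the 50 promoters not called had a median of -0.07 (range -0.62 to 0.83). Across the 69 promoters, the log2 change correlated with that of the surrounding regions (Pearson's r = 0.77, Spearman's rho = 0.77), both taken from the same libraries. The part of these surroundings in the promoter changes was not tested. Around RPL13A the surrounding median was 0.83, around RPLP2 0.89, and around RPL28 0.12.

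The size of the SCC1 result depended on single libraries and on the scaling. Without SCC1 PBS replicate 1, 7 promoters were called, and without SCC1 cetuximab replicate 1, 10 were called, all of them among the 19. RPL23A, RPL10A and RPL23 lost their call without PBS replicate 1, RPL13A lost it without PBS replicate 3, and RPL3 lost it without any 1 of 4 libraries (all but cetuximab replicate 2). RPL27, region 1 of RPL36, RPLP2 and RPS16 were among those called under all 14 alternatives computed for these promoters. With every library centred on the median of all regions, 33 were higher, and the median change of all regions moved from -0.09 to 0.09. With libraries centred on the other promoters, 15 promoters were higher and 3 lower, and with the GC trend removed 23 were higher and 1 lower.

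In SCC6 the same promoters showed little change with cetuximab. Signal fell at 3 of 69 promoters (4.35%) and rose at none, in a line where 26.7% of all regions were called in either direction, 10.4% of all regions were lower and 10.7% of promoter regions were lower. The median log2 change was -0.09 over ribosomal protein promoters, -0.11 over other promoters and 0.11 over all regions. RPL28 had signals of 92.9, 150 and 146 with cetuximab and 199, 165 and 175 with PBS, so the groups did not overlap and the first treated replicate was lowest (log2 change -0.49 ± 0.15, adjusted p = 0.0106, limma). RPLP0 had 164, 126 and 143 against 172, 193 and 183 (-0.34 ± 0.13, adjusted p = 0.0461, limma). With libraries centred on other promoters or with the GC trend removed, the split was 1 higher and 1 lower, and with an adjusted p under 0.01 no promoter was called. Centring on all regions, which moved their median from 0.11 to -0.06, gave 12 lower and 0 higher. RPL28 lost its call without cetuximab replicate 1 (log2 change -0.27, adjusted p = 0.174, limma) or PBS replicate 1, and RPLP0 lost its call without any 1 of 4 of the 6 libraries.

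Other members of known function gave no call in SCC6. RPS6, the target of the S6 kinases downstream of mTOR, had signals of 104, 115 and 84.0 with cetuximab and 109, 99.7 and 78.3 with PBS, and these overlapped throughout. RPS27A, which encodes ubiquitin fused to a small subunit protein and shares its region with the start of CLHC1, had 233, 236 and 211 against 196, 197 and 213 (log2 change 0.17 ± 0.11, adjusted p = 0.274, limma). RPS3, a small subunit protein at the messenger RNA entry, had 47.5, 44.6 and 46.0 against 25.4, 44.2 and 28.3 (0.52 ± 0.26, adjusted p = 0.131, limma). Groups at RPS3 did not overlap, although the second PBS library came close to the treated ones.

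In SCC25 limma called none of the 69 promoters, and edgeR and DESeq2 also called 0, while 4 had an unadjusted p under 0.05 by limma. Over all tested regions 0.278% were called. The median log2 change was 0.04 over ribosomal protein promoters, with 37 of 69 positive, and single values ran from -0.43 to 0.70. The highest was RPL23, with 42.2, 26.1 and 51.4 under cetuximab and 20.7, 33.9 and 17.8 under PBS, groups that overlapped (0.70 ± 0.31, adjusted p = 0.332, limma). RPL10A had 91.4, 74.9 and 67.3 against 52.4, 51.2 and 62.8, without overlap (0.48 ± 0.20, adjusted p = 0.304, limma).

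**Figure D4:**
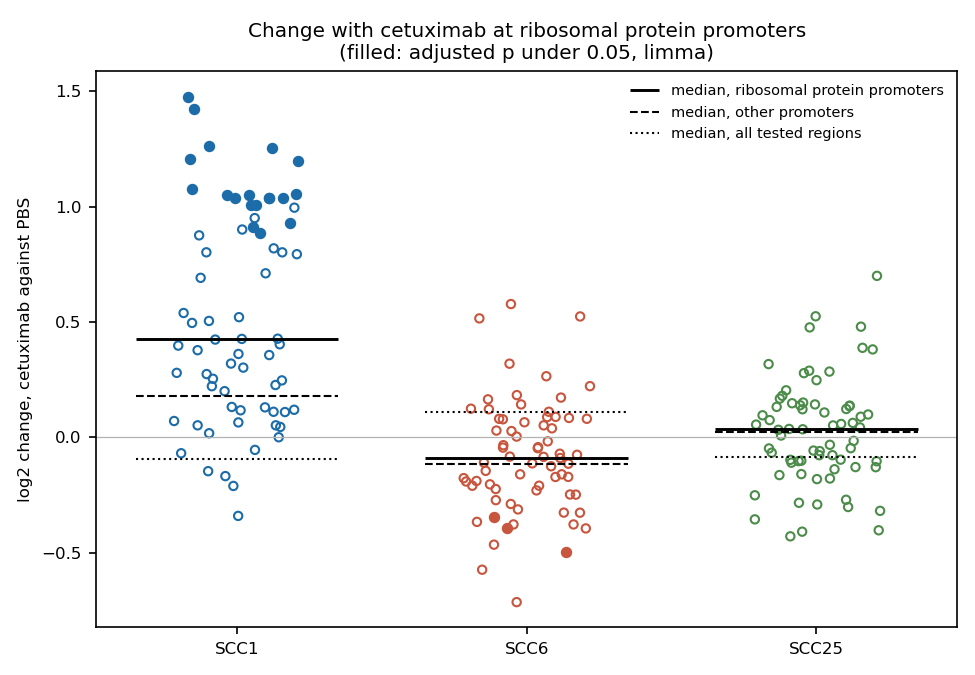
The log2 change with cetuximab against PBS (y axis) of each of 69 ribosomal protein promoter regions in SCC1, SCC6 and SCC25, with filled circles for an adjusted p under 0.05 (limma). Solid, dashed and dotted lines give the median of these promoters, of other promoters and of all tested regions, which were 0.43, 0.18 and -0.09 in SCC1.

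Over all lines together, with the line as a covariate, only RPL9 was called (log2 change 0.48 ± 0.16, adjusted p = 0.0454, limma), against 11.8% of all regions and 3.77% of promoter regions. The RPL9 region is shared with the start of LIAS. Its signals in SCC1 were 124, 77.9 and 146 with cetuximab and 61.2 and 59.2 with PBS. In SCC6 they were 52.5, 51.1 and 49.6 against 41.1, 48.8 and 48.9, and in SCC25 49.2, 46.9 and 56.7 against 33.9, 30.3 and 45.8. Treated libraries lay above the PBS libraries in each line, but the call was lost when any 1 of 12 of the 17 libraries was left out, with an adjusted p of up to 0.101 (limma). The libraries without which it was kept were SCC1 cetuximab replicate 2, SCC6 PBS replicates 2 and 3, SCC25 cetuximab replicate 2 and SCC25 PBS replicate 3.

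Whether the response to cetuximab differed between the lines was tested by the interaction of line and treatment. It was called at 14 of 69 promoters (20.3%), against 13.8% of all regions and 14.0% of promoter regions. All 14 had risen in SCC1. RPL13A led with an adjusted p of 0.000623 (limma), with log2 changes of 1.26 in SCC1, -0.38 in SCC6 and -0.10 in SCC25. RPL10A had 1.04, -0.37 and 0.48 in the same order (adjusted p = 0.00206, limma), so that its values pointed the same way in SCC1 and SCC25. RPS16 had 1.48, 0.27 and -0.40 (adjusted p = 0.00989, limma). Without SCC1 PBS replicate 1, the interaction was called at 6 promoters.

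The untreated libraries were then compared between lines, for which the SCC1 PBS libraries served as the reference of the first pair of comparisons and were the controls of the SCC1 treatment as well. In SCC6 against SCC1, 21 of 69 promoters were higher (30.4%) and 4 were lower. Over all regions 58.5% were called in either direction and 27.5% were higher, and 28.1% of promoter regions were higher. In SCC25 against SCC1, 22 promoters were lower (31.9%) and 9 higher, with 52.4% of all regions called, 22.9% lower, and 31.4% of promoter regions lower. In SCC25 against SCC6, 35 promoters were lower (50.7%) and 3 higher, with 66.7% of all regions called, 28.7% lower, and 42.0% of promoter regions lower. The median log2 difference in this last comparison was -0.46 over ribosomal protein promoters and -0.29 over other promoters. Lower in SCC6 than in SCC1 were 4 of 58 ribosomal protein promoters and 3046 of 13539 other promoters outside chromosome 19. Calls higher in SCC25 there were 7 of 58 and 2472 of 13539 against SCC1, and 3 of 58 and 2730 of 13539 against SCC6. On chromosome 19, 0 of 11 and 13 of 908 were lower in SCC6 than in SCC1. Higher in SCC25 there were 2 of 11 and 336 of 908 against SCC1, and 0 of 11 and 18 of 908 against SCC6. Centring on other promoters changed the split to 16 higher and 12 lower for SCC6 against SCC1, 13 higher and 16 lower for SCC25 against SCC1, and 5 higher and 21 lower for SCC25 against SCC6. With the GC trend removed the split of SCC6 against SCC1 was 32 higher and 2 lower, and with centring on all regions that of SCC25 against SCC1 was 5 higher and 35 lower. Without SCC1 PBS replicate 1, SCC6 against SCC1 had 11 higher and 3 lower.

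RPL3 and RPS16 stood lowest in untreated SCC1. RPL3 had signals of 33.8 and 35.7 in SCC1, 93.0, 106 and 105 in SCC6, and 64.4, 72.1 and 73.8 in SCC25, with no overlap between any lines. Its log2 difference of SCC6 from SCC1 was 1.52 ± 0.19 (adjusted p = 3.76e-06, limma). RPS16 had 26.0 and 27.9 in SCC1, 68.9, 107 and 70.7 in SCC6, and 57.7, 38.9 and 50.9 in SCC25 (1.54 ± 0.25 for SCC6 against SCC1, adjusted p = 7.43e-05, limma). RPL13A followed the same order, with 74.2 and 51.4 in SCC1 against 141, 141 and 119 in SCC6 (1.09 ± 0.19, adjusted p = 0.000132, limma). These 3 promoters were also among the 19 that rose in SCC1 with cetuximab, a comparison with the same PBS libraries. Chromosome 19 carried RPS16 and RPL13A, and there 9 of 11 ribosomal protein promoters were higher in SCC6 than in SCC1 and 0 lower. Of the other promoters on this chromosome, 736 of 908 were higher and 13 lower, a similar share, and they had a median log2 difference of 1.28, against 0.00 for other promoters elsewhere.

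RPL5 stood highest in SCC25. Its signals were 236, 217 and 201 in SCC25 PBS, 133 and 136 in SCC1 PBS, and 104, 108 and 96.8 in SCC6 PBS, so the lines did not overlap. The log2 difference of SCC25 from SCC6 was 1.07 ± 0.12 (adjusted p = 8.95e-07, limma), and the regions within 1 Mb had a median difference of 2.36. RPS29 region 1 was also higher in SCC25 than in SCC1, with 416, 379 and 390 against 187 and 250 (0.86 ± 0.12, adjusted p = 2.01e-05, limma). In SCC6 PBS it had 354, 305 and 340 and was likewise called higher than in SCC1, so SCC1 was the lowest line there. The regions around RPS29 had a median difference of 0.87 for SCC25 against SCC1.

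RPSA, RPS20, RPS7 and RPS3 had their lowest mean in SCC25. RPSA had signals of 130, 136 and 89.9 in SCC25 PBS, 268 and 276 in SCC1 PBS, and 213, 203 and 247 in SCC6 PBS, with a log2 difference of SCC25 from SCC1 of -1.22 ± 0.16 (adjusted p = 1.4e-05, limma). RPS20 had 126, 138 and 137 in SCC25, 278 and 290 in SCC1, and 198, 241 and 290 in SCC6 (-1.09 ± 0.14 for SCC25 against SCC1, adjusted p = 1.25e-05, limma). SCC1 and SCC6 overlapped at RPS20, and SCC25 lay below both. The regions within 1 Mb had median differences of -0.85 around RPSA and -0.31 around RPS20. RPS7 had 72.4, 69.2 and 71.3 in SCC25, against 157, 136 and 134 in SCC6 (-0.99 ± 0.14, adjusted p = 1.04e-05, limma), while the regions within 1 Mb had a median difference of 1.47, in the opposite direction. RPS3 had 16.6, 26.0 and 16.1 in SCC25, against 50.7 and 77.0 in SCC1 (-1.66 ± 0.33, adjusted p = 0.000617, limma), and overlapped SCC6 at 25.4, 44.2 and 28.3.

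Several large subunit promoters were lower in SCC25 than in 1 or both of the other lines. RPL18, shared with the start of SPHK2, had 86.7, 88.7 and 96.7 in SCC25 PBS, against 193, 171 and 219 in SCC6 PBS (-1.08 ± 0.15, adjusted p = 6.87e-06, limma), but it overlapped SCC1 PBS at 89.8 and 119 (-0.19 ± 0.16, adjusted p = 0.344, limma). RPL31 had 46.0, 44.7 and 47.5 against 100, 85.6 and 119 (-1.11 ± 0.18, adjusted p = 4.76e-05, limma), and the regions within 1 Mb of it had a median difference of 0.01. RPL15 had 88.9, 92.3 and 80.6 in SCC25, against 167 and 174 in SCC1 (-0.96 ± 0.17, adjusted p = 0.000235, limma). RPL31 and RPL15 were lower in SCC25 than in either other line, and their SCC25 libraries lay below all SCC1 and SCC6 PBS libraries. In the other direction, RPL35, at the tunnel exit, had 236, 257 and 202 in SCC25 against 137, 183 and 167 in SCC6 (0.51 ± 0.13, adjusted p = 0.00281, limma). RPS23, a small subunit protein at the decoding site, had 87.8, 95.2 and 85.7 against 56.8, 56.2 and 81.6 (0.48 ± 0.17, adjusted p = 0.0235, limma), and its call was lost without any 1 of 4 libraries. RPS23 gave no call against SCC1 (0.06 ± 0.20, adjusted p = 0.819, limma).

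RPL7, the widest of these regions and shared with the start of RDH10, had 738 and 686 in SCC1 PBS, 441, 547 and 499 in SCC6 PBS, and 425, 387 and 416 in SCC25 PBS. Its log2 difference from SCC1 was -0.53 ± 0.09 in SCC6 (adjusted p = 0.000148, limma) and -0.80 ± 0.09 in SCC25 (adjusted p = 3.89e-06, limma). RPS6 was lower in SCC25, with 48.6, 49.0 and 65.3, against 75.5 and 133 in SCC1 and 109, 99.7 and 78.3 in SCC6 (-0.80 ± 0.21 for SCC25 against SCC6, adjusted p = 0.00346, limma). The X-linked RPS4X did not pass in any of the 3 comparisons, with 18.2 and 40.2 in SCC1, 42.3, 34.8 and 37.0 in SCC6, and 37.3, 36.1 and 39.0 in SCC25.

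As with cetuximab in SCC1, line differences ran together with the surrounding regions. Pearson's r between a promoter's log2 difference and the median of the other regions within 1 Mb was 0.75 for SCC6 against SCC1, 0.74 for SCC25 against SCC1 and 0.61 for SCC25 against SCC6 (Spearman's rho 0.72, 0.70 and 0.55), over 69 promoters that share the same libraries. In SCC6 and SCC25 the same correlation for the change with cetuximab was 0.44 and 0.32 (rho 0.45 and 0.25). The part of the surroundings in these differences was not tested.

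**Figure D5:**
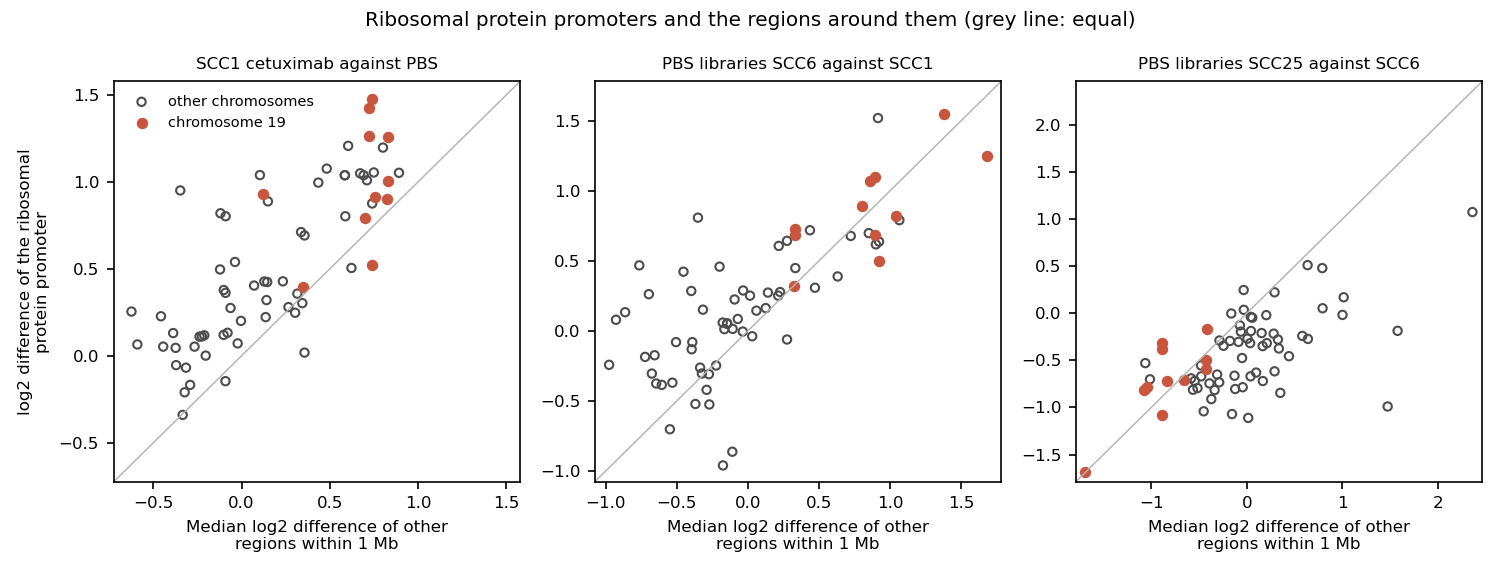
Log2 difference of each of 69 ribosomal protein promoters (y axis) against the median log2 difference of the other tested regions within 1 Mb (x axis), for cetuximab in SCC1 and for untreated SCC6 against SCC1 and SCC25 against SCC6, with chromosome 19 filled and a grey line where both are equal. The 2 values correlated with Pearson's r of 0.77, 0.75 and 0.61. Most promoters lie above the line in the first panel and below it in the last.

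Other genes of the translation machinery were counted in SCC1 with cetuximab, where 13.1% of all promoter regions and 4.41% of all regions were called higher. Whether these lists differed from other promoters was not tested. Of 80 regions at mitochondrial ribosomal protein genes, 14 rose and 0 fell (median log2 change 0.26). Of 24 regions at translation partners, such as elongation factors, EIF3 subunits and nucleolar proteins, 8 rose and 0 fell (median 0.40). Of 24 regions at genes of ribosome biogenesis and its control, such as RNA polymerase I subunits, MYC, MTOR and LARP1, 6 rose and 0 fell (median 0.33). Of 6 regions at paralogs that the rule left out, 1 rose and 1 fell. In SCC6 the counts were 2 higher and 3 lower for mitochondrial ribosomal proteins, 1 and 2 for translation partners, 1 and 3 for biogenesis genes, and 0 and 1 for paralogs. In that line 10.7% of all promoter regions and 10.4% of all regions were called lower. In SCC25 limma called none of these regions, with an unadjusted p under 0.05 at 3, 2, 3 and 0 regions, respectively. Squamous epithelial genes had 3 of 11 regions higher in SCC1 and 0 lower, and 3 of 8 higher and 1 lower in SCC6. Higher calls in SCC6 were made at 14 of 913 other promoters on chromosome 19 and at 499 of 13133 elsewhere. Of regions without a promoter, 13593 of 72200 were higher in SCC6.

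In SCC1 the promoters with and without a C at the start that opened a run of at least 5 pyrimidines both had a positive median change. For each gene the region of highest mean signal was taken. For RPL6, RPL36 and RPL12 this region did not hold the annotated start by which the gene was sorted. Region 1 of RPL36 was called. Genes whose annotated start opened a pyrimidine run had a median log2 change of 0.36, with 9 of 49 called. The other genes had a median of 0.93, with 8 of 16 called, and 13.1% of all promoter regions were called higher. These other genes included RPL3, RPL23 and RPS7, whose start was a C inside a pyrimidine run with fewer than 5 pyrimidines from the start on. RPL3 and RPL23 were among those called. RPL23A and RPL27, shown above without a run at the start, belonged to the second kind. Whether these kinds differed was not tested, since the kinds were compared after their values were known.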

How the data were processed

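Members and gene lists were chosen with earlier results of these data known. Per the submitters' processing notes and methods, Trim Galore 0.5.0 was used for trimming, Bowtie2 2.3.2 for alignment to hg19 (GRCh37), and Picard 2.18 and SAMtools 1.9 for filtering. MACS2 called broad peaks in each library (version not given in the sources used here), and DiffBind merged them into 1 region table. The deposited region table holds a normalised signal per library, which was a whole number of reads, at least 1, times 1 factor per library of 0.331 to 1.95 (100% of values within 0.001 of a whole number, so reads were recovered). The deposited peak lists give a score, a fold enrichment (a ratio) and −log10 p-values and q-values, of which the fold enrichment and the peak positions were used.

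Starts came from protein-coding transcripts of GENCODE release 44 mapped to GRCh37. Of 82 genes that the rule names, 2 on the Y chromosome were given no value. Signals were tested as log2(signal + 1) with limma 3.58.1 (trend, robust, two-sided) in R 4.3.3, after the 25% of regions lowest in mean were left out of each fit, with Benjamini-Hochberg adjustment over all tested regions. Each line was fitted alone, then all lines with the line as covariate, their interaction, and the PBS libraries. As alternatives, the recovered whole reads were tested with edgeR 4.0.16 (quasi-likelihood) and DESeq2 1.42.0. Second copies were searched with minimap2 2.31. The fits were tested on simulated reads. The named promoters were, in each comparison, the 6 higher and 6 lower calls with the smallest adjusted p, the 4 highest and 4 lowest levels per kb, a fixed set of genes with textbook roles, and up to 12 calls of the interaction. RPL4, RPL32, RPS28, region 2 of RPL6 and the genes without a region were named after their values were seen. Some promoters that the rule names are counted but not reported here by name, and they were left out of the plots with gene names. Samples with the same replicate number did not deviate together (correlations -0.03 to 0.02), so these numbers were not used as pairs.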

Additional observations from a re-analysis of the deposited data

Results flagged for a closer look

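The response to cetuximab was not the same in all 3 lines, by the interaction of line and treatment, at 14 ribosomal protein promoters (adjusted p from limma). These were 20.3% of the 69 tested, against 13.8% of all regions and 14.0% of promoter regions. For 13 of the 14 promoters the values follow. The adjusted p was 0.000623 for RPL13A, 0.00166 for region 1 of RPL36, 0.00206 for RPL10A and 0.00288 for RPL23A. It was 0.00488 for RPL3, 0.00762 for RPL27, 0.00864 for RPL18, 0.00989 for RPS16, 0.0134 for RPL8, 0.0143 for RPLP2, 0.0148 for RPL28, 0.024 for RPL23 and 0.0393 for region 2 of RPL6. RPL18 had log2 changes of 0.91 in SCC1, -0.31 in SCC6 and 0.14 in SCC25, RPL8 of 1.01, -0.23 and 0.11, and RPL28 of 0.93, -0.49 and -0.10.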

How the results depend on the processing

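Of the counts of called ribosomal protein promoters, those for SCC25 with cetuximab (0 under all 18 alternatives) and for untreated SCC25 against SCC1 and SCC25 against SCC6 (20 alternatives each) stayed within 1.5 times. Centring on the median of all regions gave 33 calls in SCC1, 12 in SCC6 and 28 for the interaction, against 19, 3 and 14. An adjusted p under 0.01 left 0 in SCC6, 0 over all lines, 9 for the interaction and 14 for untreated SCC6 against SCC1. Quantile normalisation gave 7 in SCC6 and 0 over all lines, edgeR 5 in SCC6 and 22 for the interaction, and DESeq2 22 for the interaction and 3 over all lines. Over all lines, where RPL9 was the only call, centring on other promoters and no filter gave 0 and removal of the GC trend 3. Leaving out 1 library gave 7 (without SCC1 PBS replicate 1) to 28 in SCC1, 2 to 3 in SCC6, 0 to 2 over all lines, 6 (without SCC1 PBS replicate 1) to 19 for the interaction, and 14 (without SCC1 PBS replicate 1) to 26 for untreated SCC6 against SCC1. Of 1287 values of single promoters, 1157 kept their direction and side of the threshold, 129 lost their call in the same direction and 1 reversed: RPL30 in untreated SCC6 against SCC1, which was -0.37 and became 0.0587 with the GC trend removed. The cause of these shifts was not tested. Start sites of all transcripts, an alternative chosen after seeing the data, gave 19 calls in SCC1.

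With the replicate number as a block, 34 promoters were called in SCC1, 4 in SCC6, 0 in SCC25, 0 over all lines, 20 for the interaction, and 24, 28 and 39 in the untreated comparisons. The numbers did not pair the samples.

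SCC1 rested on 5 libraries, of which cetuximab replicate 2 was the shallowest of all 17, and leaving out 1 PBS library left 1, which was assumed to vary like the other group.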
